A study of Apis mellifera with 20 samples.

Results

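Vitellogenin, gene model GB49544, lies on honeybee scaffold Group4.6 beside GB49545, GB49579, GB49580 and GB49581, and all 5 had lower input FPKM in L3 queens than in L3 workers. The 5 models, of 15314 in the deposited tables and 98 on this scaffold, were chosen by that measured caste difference in the L3 input libraries together with their neighbouring positions. The difference that selected them is therefore given as values, without a test. Between the stages the run did not move as one. The pair on the minus strand, GB49544 and GB49545, was lower in input at L5 than at L1, and the trio on the plus strand, GB49579, GB49580 and GB49581, was higher. The adjacent models outside the run did not divide by strand in this way. Minus-strand GB49543 differed by 3.44 log2 units in queens and 2.90 in workers, and plus-strand GB49577 by -3.06 and -2.75, not tested.

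Vitellogenin is the precursor of egg yolk protein, a lipid-carrying glycoprotein that insects make mainly in the fat body and secrete into the blood. In honeybees it is best known from adults, where queens use it for eggs and nurse workers for brood food, and where it is tied to juvenile hormone and to the age at which workers begin to forage. N6-methyladenosine (m6A), a methylated base within mRNA, is written by a methyltransferase complex and bound by reader proteins. The name vitellogenin for GB49544 comes from general knowledge of the honeybee gene set. The files give IDs without names, and the other 4 models are described by ID alone, with no function assigned.

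Honeybee larvae (Apis mellifera) of 5 kinds were profiled. They were larvae of instar 1 (L1), which can still become either caste, and queen and worker larvae of instar 3 (L3) and instar 5 (L5), all from colonies of 1 apicultural institute with no genetic or drug treatment named. Each kind has 2 libraries of fragmented polyadenylated RNA (input) and 2 of RNA pulled down with an m6A antibody (IP), 20 in all. Whether the replicates are separate collections is not in the labels, and the p-values therefore reflect only how far these samples vary, possibly for technical reasons. Values are FPKM, fragments scaled to model length and library size. The libraries list 8973 to 11604 models above 1 FPKM, and their read depth is unknown. In RNA of larvae, fewer cells that use a gene and less RNA per cell cannot be told apart. No marker of a tissue could be checked because the IDs carry no names.

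The run spans Group4.6 from 402700 to 421657, in the coordinates of the deposited tables, whose build is not given in the sources used here. GB49545 (402700 to 403585, minus strand) opens it. GB49579 (408517 to 409520), GB49580 (410931 to 412845) and GB49581 (413111 to 415017) follow on the plus strand, and GB49544 (415445 to 421657, minus strand) closes it. GB49581 and GB49544 end 427 bp apart on opposite strands. None of the 5 overlaps another model in the tables, although the library kit does not mark strand. A further model, GB49578 (404388 to 407724, plus strand), sits inside the run and is no member. It had at most 0.172 FPKM in any input library, too low to enter the tests. The span of GB49544, 6213 bp, is close to the 6177 bp of the gene with the symbol Vg in the RefSeq table of another assembly, but none of the deposited IDs occurs in that table.

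**Figure D1:**
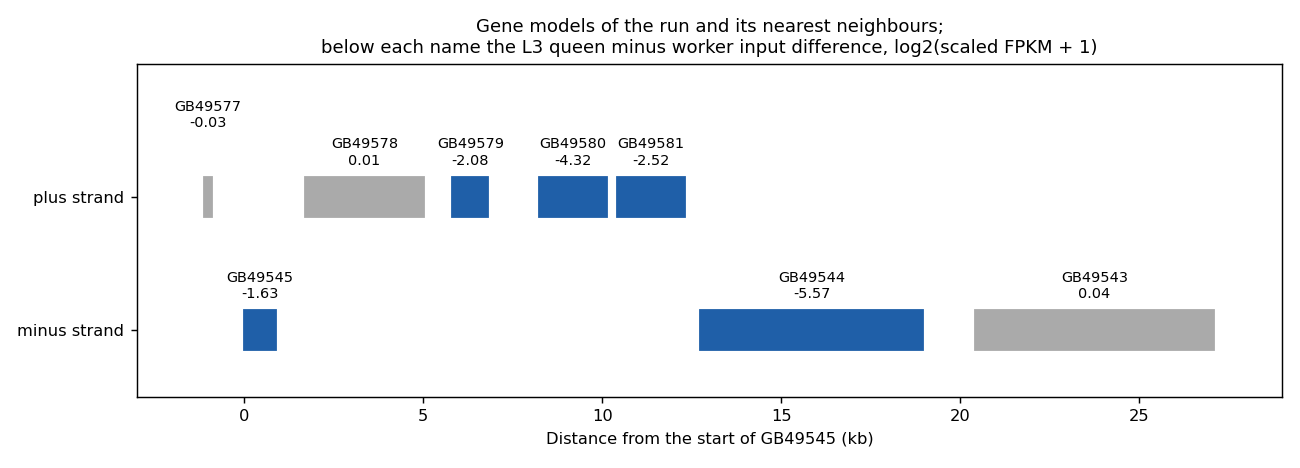
Gene models of the run (blue) and nearby models that are not members (grey) by strand, against distance from the start of GB49545 in kb; the number under each name is the L3 queen minus worker difference of the input libraries on the log2(scaled FPKM + 1) scale. The 5 blue models range from -5.57 to -1.63, while the 3 grey ones lie between -0.03 and 0.04.

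Vitellogenin had the widest L3 caste difference of the run. GB49544 stood at 36.8 and 61.2 FPKM in the L3 worker inputs and at 0.353 and 0.532 in the L3 queen inputs, a 179-fold ratio of the scaled means against a group below 1 FPKM. L1 larvae lay between, at 16.8 and 21.6 FPKM. The order of the kinds was thus L3 workers, L1, L3 queens and then L5, where 2 of the 4 inputs were listed at 0 and the others had 0.0625 and 0.207 FPKM. The kinds below L1 all lay under 1 FPKM, and the L5 queen and worker values overlapped.

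GB49545, the other minus-strand model, had the smallest L3 caste difference. It had 52.3 and 63.2 FPKM in L3 workers and 29.4 and 30.0 in L3 queens as deposited. The ratio of the scaled means was 3.18-fold, wider than in the deposited values, so its size depends on the scaling. Its highest values were those of L1, 90.02 and 76.6 FPKM, as deposited. After scaling, the L3 worker mean of 77.8 was above the L1 mean of 56.1, so the order of these kinds depends on the scaling. The L5 inputs held 20.6 to 25.5 FPKM in both castes, and queens and workers overlapped there.

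Among the plus-strand models, GB49580 was the most abundant. It had 505 and 559 FPKM in L3 workers, more than 98.8% and 98.9% of all models in those libraries, against 63.2 and 28.5 in L3 queens and 14.7 and 13.1 in L1. GB49581 followed the same order at a far lower level, with 4.54 and 6.52 FPKM in L3 workers, 0.647 and 0.474 in L3 queens, and 0.232 and 0.173 in L1. GB49579 was listed at 0 in both L1 inputs and 1 L3 queen input, with 0.527 FPKM in the other and 3.53 and 2.52 in L3 workers. The L3 ratios of the scaled means were 19.3-fold for GB49580 and 16.2-fold for GB49581, with GB49581 below 1 FPKM in queens.

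On the log2(scaled FPKM + 1) scale, the L3 queen minus worker differences of the input were -5.57 for GB49544, -4.32 for GB49580, -2.52 for GB49581, -2.08 for GB49579 and -1.63 for GB49545, where the median of all models was -0.02. The models just outside showed no such gap. GB49577 (401588 to 401794, plus strand), next to GB49545, had a difference of -0.03, and GB49543 (423120 to 429778, minus strand), next to GB49544, had 0.04. As deposited, L3 queen inputs held 44.7 and 63.1 FPKM of GB49543 and L3 worker inputs 26.6 and 37.1. Farther along, queen inputs held 0.673 and 1.11 FPKM of GB49542 and worker inputs 0.963 and 0.347. For GB49541 the queen values were 23.0 and 36.0 FPKM and the worker values 10.6 and 10.9, the opposite order to the run. On the other side GB49546 was listed at 0 in all 4 L3 inputs and GB49547 had at most 1.58 FPKM.

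**Figure D2:**
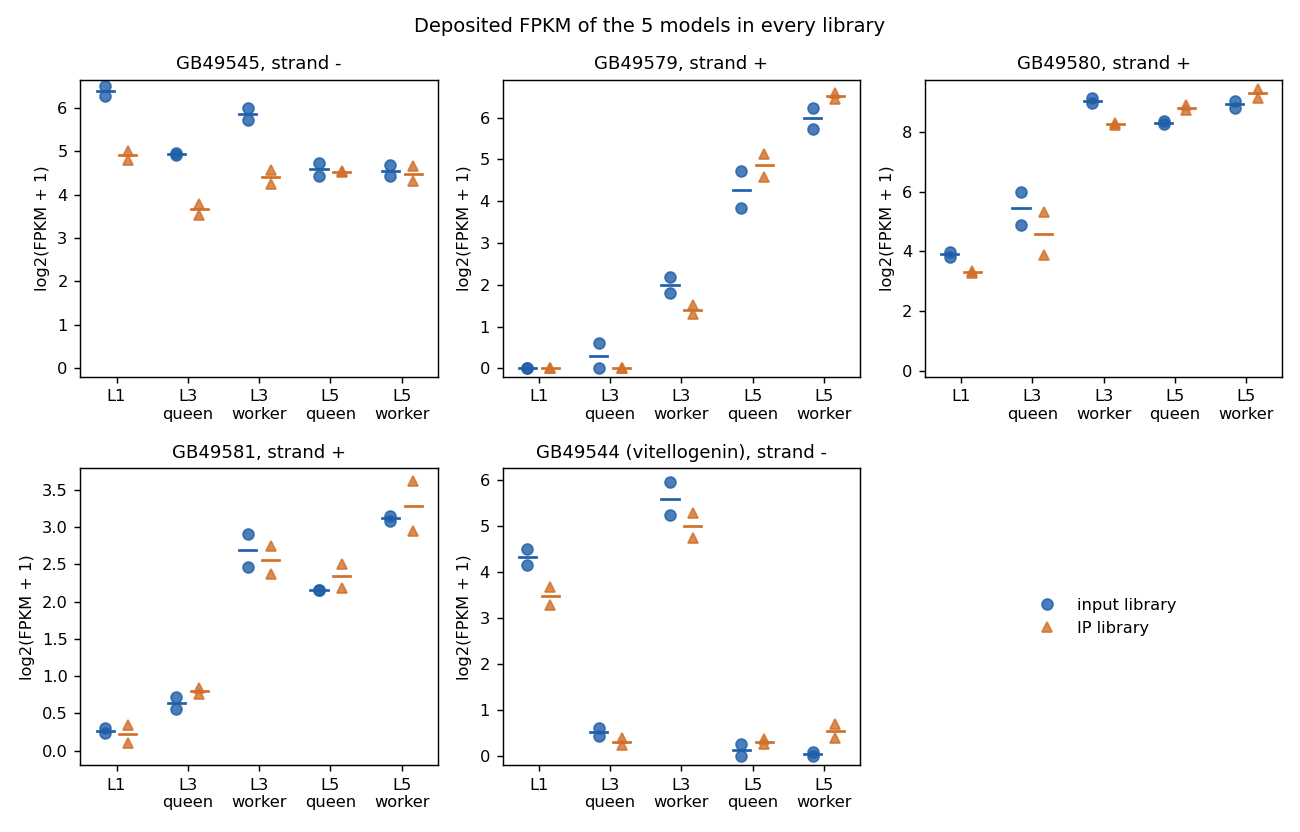
log2(FPKM + 1) of each of the 5 models in all 20 libraries, by kind of larvae; circles are input and triangles IP libraries, as deposited, and bars are the mean of the 2 libraries. L3 workers lie above L3 queens in all panels, while L5 lies at the top for GB49579, and L5 and L3 queens lie at the bottom for GB49544.

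The IP libraries had no part in choosing the run, though a same-titled IP and input library may come from the same RNA. An IP level also carries the abundance of the model in input. A caste difference at L3 in IP is therefore not independent of the choice of the run. In them GB49544 had 25.6 and 38.1 FPKM in L3 workers, 0.315 and 0.178 in L3 queens and 8.81 and 11.8 in L1. GB49580 stood at 299.7 and 315 FPKM in the worker and at 38.7 and 13.6 in the queen libraries of that instar, and GB49581 at 4.18 and 5.71 and at 0.796 and 0.694. GB49545 stood at 18.0 and 22.6 FPKM in workers and 12.9 and 10.7 in queens, and GB49579 was listed at 0 in both queen libraries, with 1.45 and 1.84 FPKM in workers. L3 queens and workers did not overlap for any of the 5, a count that the choice of the run favours. How many of all models also lacked overlap was not counted.

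In the limma fit of the 10 IP libraries, all 5 models were lower in L3 queens at an adjusted p under 0.05, where 6.17% of the 10499 models tested were called lower. The models were chosen for that direction in input, so this count and its p-values are not independent evidence of it. GB49544, GB49579 and GB49581 were below 1 FPKM in both L3 queen IP libraries and entered the fit through other kinds of larvae. They could hardly have been called higher in queens, which does not hold for GB49580 and GB49545. The log2 difference was -5.16 ± 0.26 for GB49544 (SE, n = 2 and 2, limma adjusted p = 7.17e-06) and -4.24 ± 0.34 for GB49580 (limma adjusted p = 5.47e-05). It was -2.19 ± 0.29 for GB49581, -1.69 ± 0.22 for GB49579 and -1.27 ± 0.18 for GB49545, with limma adjusted p-values of 1.13e-03, 1.06e-03 and 1.76e-03. The median of the 5 was -2.19, against 0.02 for all models. With the L3 libraries fitted alone, 4 of the 5 were lower and GB49579 was too low to be tested, against 11.2% of all models. Without scaling, the median of all models shifted by 0.48 and the calls over all models changed from 483 higher and 648 lower to 2335 and 359. The difference of GB49545 was then -0.73, and all 5 were still lower. With a pseudocount of 0.1 that of GB49579 was -4.54.

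From L1 to L5 the minus-strand pair fell in input. The log2 difference of GB49544 was -3.64 ± 0.31 in queens (SE, n = 2 and 2, limma adjusted p = 5.74e-05) and -3.75 ± 0.31 in workers (limma adjusted p = 4.79e-05). At L5 its values were at the bottom of the scale, so these sizes depend on the pseudocount. That of GB49545 was -1.08 ± 0.17 in queens and -1.05 ± 0.17 in workers, a 2.14-fold and a 2.11-fold ratio of the scaled means, with limma adjusted p-values of 1.46e-03 and 1.67e-03. It still lay above 83.7% to 86.8% of all models in the L5 inputs.

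The plus-strand trio rose over the same span. GB49579 went from a value listed at 0 at L1 to 25.2 and 13.2 FPKM in queen and 52.1 and 74.0 in worker larvae of L5. Its log2 difference was 4.44 ± 0.37 in queens and 6.22 ± 0.37 in workers (SE, n = 2 and 2, limma adjusted p = 4.99e-05 and 8.07e-06). GB49580 reached 306 and 332 FPKM in queens at L5, with 452 and 526 in workers. That was 38.4-fold and 62.1-fold above L1 by the scaled means, with log2 differences of 5.12 ± 0.30 and 5.80 ± 0.30 (limma adjusted p = 8.02e-06 and 4.34e-06). GB49581 had 3.46 in both L5 queen inputs and 7.49 and 7.89 FPKM in workers, with log2 differences of 2.11 ± 0.25 and 3.15 ± 0.25 (limma adjusted p = 3.35e-04 and 4.27e-05).

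Thus 3 of the 5 were higher and 2 lower than L1 in each caste. Over the 10121 models tested, 20.1% were called higher and 27.3% lower for the queens, and 20.3% and 26.8% for the workers, so a change between these stages was common. Both comparisons share the L1 libraries. GB49579 and GB49581 were below 1 FPKM at L1 and entered the fit through L3 workers and L5. GB49544 was below 1 FPKM at L5 and entered through L1 and L3 workers. The direction of their differences was thus largely set by how they entered, which does not hold for GB49580 and GB49545. The median of the 5, 2.11 in queens and 3.15 in workers, was the value of GB49581 and not a shift of the whole run. For all models the median was -0.15 and -0.16. With a pseudocount of 0.1 in place of 1, the differences were -6.13 and -6.64 for GB49544, 7.69 and 9.52 for GB49579, and 4.09 and 5.29 for GB49581, in queens and workers. Without scaling, the median of all models shifted by -0.67 and -0.73. The calls over all models went from 2034 higher and 2767 lower to 960 and 4914 in queens, and from 2053 and 2717 to 951 and 5164 in workers. GB49545 was then at -1.81 and -1.84, and the calls of all 5 were kept.

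From L3 to L5 the castes had different values. In workers the L5 minus L3 difference of the input was -0.31 for GB49580 and 0.27 for GB49581 on the log2 scale. In queens it was 3.32 and 1.75. GB49579 differed by 3.89 in workers and by 4.18 in queens. GB49544 differed by -5.98 in workers and by -0.29 in queens, where it was already below 1 FPKM at L3. These differences contain the L3 libraries that chose the run and were not tested.

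At L5 vitellogenin was near 0 in both castes, and GB49545 differed by -0.03 ± 0.17 (SE) in input and 0.17 ± 0.18 in IP. GB49545 did not pass the test in either kind of library. GB49544 entered the fits through L1 and L3 workers, so its own test at L5 says nothing about the castes. GB49579 was lower in L5 queens in both kinds of library. Its log2 difference was -1.78 ± 0.37 in input (SE, n = 2 and 2, limma adjusted p = 0.0196) and -1.53 ± 0.22 in IP (limma adjusted p = 3.36e-03). Its IP values there were 33.9 and 23.0 FPKM for queens and 94.5 and 86.8 for workers, without overlap. GB49581 was called lower in input (-1.04 ± 0.25, limma adjusted p = 0.0353), but its difference in IP was -0.82 ± 0.29 (limma adjusted p = 0.114). GB49580 had differences of -0.68 ± 0.30 and -0.34 ± 0.34 in input and IP (limma adjusted p = 0.193 and 0.578).

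Thus 2 of the 5 were called lower in L5 queen input, where 6.23% of all models were, and 1 of 5 in IP, where 4.24% were. Both input calls rest on a spread pooled with the L1 and L3 libraries. With the L5 inputs fitted alone neither passed (limma adjusted p = 0.137 for GB49579 and 0.259 for GB49581), and 0.809% of all models did. A pseudocount of 0.1 also ended both calls, at limma adjusted p-values of 0.168 and 0.0849, as did library weights, at 0.204 and 0.380. The IP call of GB49579 passed with the L5 libraries alone, where 2.09% of all models were called lower. GB49581 also missed the threshold in input when any 1 of the L1, L3 or L5 queen inputs or L5 worker replicate 2 was left out (limma adjusted p = 0.0504 to 0.0955). GB49579 did so without L5 queen replicate 2 (0.0578) or L5 worker replicate 2 (0.0754). In IP, GB49581 passed without L5 worker replicate 1 (limma adjusted p = 0.0275). With FPKM as deposited the IP calls over all models went from 462 higher and 445 lower to 308 and 646, after a median shift of -0.12.

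**Figure D3:**
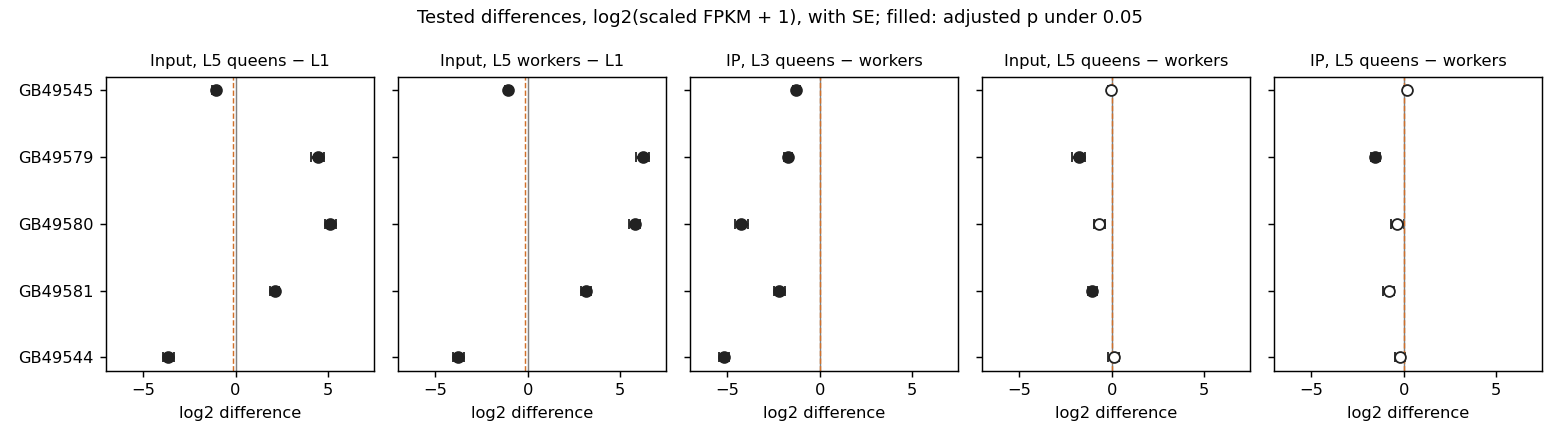
Log2 differences of the 5 models with their SE in the 5 comparisons of input or IP level that were tested, on the log2(scaled FPKM + 1) scale; filled points have a limma adjusted p under 0.05, and the dashed line is the median of all models. In the L5 to L1 panels GB49579, GB49580 and GB49581 lie to the right and GB49544 and GB49545 to the left, while in the L3 IP panel all 5 lie to the left.

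IP was set against input to see how the pulldown treated each model. The ratio is of a whole gene model, single m6A sites cannot be seen, and none of the libraries is a pulldown without the m6A antibody. At L1, GB49545 was lower in IP, with 31.5 and 27.1 FPKM against 90.02 and 76.6 in input. Its log2 IP minus input difference was -0.84 ± 0.16 (SE, n = 2 and 2, limma adjusted p = 1.09e-03). It was the 1 model of the run called lower, against 20.4% of the 10375 models tested. GB49579, listed at 0 in all 4 L1 libraries, and GB49581, at most 0.270 FPKM there, entered the fit through other kinds of larvae and could not have been called lower. With the L1 libraries fitted alone 3 of the 5 were tested, and GB49545 was again the 1 called lower, where 2504 of all 10501 models were. With FPKM as deposited the difference of GB49545 was -1.48, and GB49544 also passed, at -0.84 (limma adjusted p = 0.0214) in place of -0.23 (limma adjusted p = 0.554). The median of all models then shifted by -0.59, and the calls over all models went from 2485 higher and 2113 lower to 1417 and 4207.

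At L5 the IP and input values of GB49545 lay together, at 21.9 and 22.3 FPKM in IP against 20.7 and 25.5 in input for queens, and 24.2 and 18.9 against 24.6 and 20.6 for workers. In IP, its log2 L5 minus L1 difference was -0.14 in queens and -0.31 in workers, which was not tested. Its IP over input value was higher in L5 queens than in L1 by 0.75 ± 0.23 (SE, limma adjusted p = 0.0370). That made 1 of the 5 models called higher, against 9.03% of all models. For L5 workers against L1 the difference was 0.54 ± 0.23 (limma adjusted p = 0.144), and 0 of the 5 passed where 11.9% of all models did. In both comparisons GB49579 and GB49581 were at or near 0 FPKM in the L1 libraries, and GB49544 was below 1 FPKM in the L5 libraries. These models entered the fit through other kinds of larvae, so the counts say little about them. The queen call was lost with the L1 and L5 libraries fitted alone (limma adjusted p = 0.128, where 7.54% of all models passed) and with library weights (0.155). The call also failed without any 1 of the L1 libraries, either L5 queen IP library or L5 queen input replicate 1 (0.0508 to 0.116).

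Vitellogenin showed no called IP over input difference. Its same-numbered library pairs gave -0.32 and -0.13 at L1, -0.21 and -0.35 in L3 workers and 0.05 and -0.24 in L3 queens, on the log2(scaled FPKM + 1) scale. In L5 workers it was listed at 0 in 1 input and at 0.0625 FPKM in the other, against 0.618 and 0.314 FPKM in IP. The difference there was 0.47 ± 0.29 (SE, limma adjusted p = 0.282), and with a pseudocount of 0.1 it became 2.03 (limma adjusted p = 0.0241), at levels below 1 FPKM. Over all models, the L5 worker IP libraries listed fewer at 0 (1384 and 1592) than the L5 worker inputs (5063 and 5430).

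The plus-strand trio had no called difference between IP and input. The pairs of GB49580 gave -0.09 and 0.11 at L1, -0.29 and -0.52 in L3 queens, -0.45 and -0.50 in L3 workers, 0.72 and 0.21 in L5 queens, and 0.40 and -0.13 in workers of L5. GB49581 lay between -0.33 and 0.37 in all pairs. GB49579 was listed at 0 in both IP and input at L1 and lay between -0.74 and 0.63 elsewhere. The values of the L3 larvae contain the input libraries that chose the run, as the divisor, and were not tested.

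No model of the run was called in L5 queens, in L5 workers or in the difference between the L5 castes, where 3.55%, 16.7% and 0.106% of all models were called in either direction by limma. At an unadjusted p under 0.05 the count was also 0 in each. GB49544 was below 1 FPKM in every L5 library and entered these fits through other kinds of larvae, so its lack of a call says nothing about L5. With the L5 libraries alone, 4 of the 5 were tested and 0 were called, where limma called 0, 27 and 0 of all 10188 models. For queens the median of the 5 was 0.18, against 0.11 for all models, and for workers 0.13, against 0.09. With FPKM as deposited the calls over all models went from 1056 higher and 678 lower to 1483 and 263 in L5 workers, and from 3 and 8 to 1 and 9 between the L5 castes. For L5 against L1 they went from 937 and 1164 to 2981 and 614 in queens, and from 460 and 770 to 3288 and 298 in workers, after median shifts of 0.62 and 0.79. GB49544 and GB49545 then passed in workers, at 1.34 and 1.41.

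**Figure D4:**
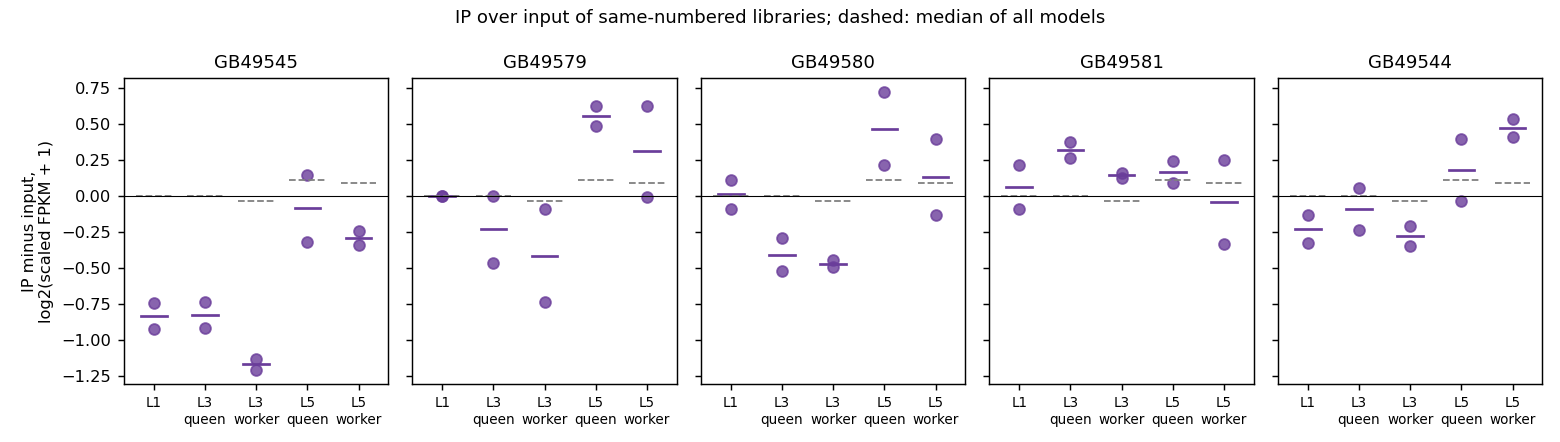
IP minus input of same-numbered libraries for each of the 5 models, on the log2(scaled FPKM + 1) scale, by kind of larvae; points are the 2 library pairs, bars their mean and dashed lines the median of all models. GB49545 lies at or below -0.74 in L1 and L3 and between -0.34 and 0.15 at L5.

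The models were also compared by their course over the 10 input libraries, as a description over libraries that fall into 5 kinds of 2. These include the 4 L3 inputs that chose the run, so a shared L3 caste difference is built into every r between its models. By Pearson's r of log2(scaled FPKM + 1), GB49545 was the model closest to GB49544 of the 10120 others (r = 0.98), and GB49544 was the closest to GB49545. After it came GB48125 (Group7.24, 435134 to 449629, minus strand) at 0.95, GB53805 (Group7.10, 627699 to 632835, plus strand) at 0.95, and GB44100 and GB44104 on Group4.13 and GB44560 on Group5.14 at 0.93 to 0.94. GB48125 had 6.39 and 6.33 FPKM at L1, 3.03 and 3.29 in L3 queens, 4.37 and 5.38 in L3 workers and 2.31 to 2.93 at L5, so it shares the order of GB49545 over a narrower range.

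GB49580 and GB49581 were alike (r = 0.97), with 17 and 10 models closer, and GB49579 had r = 0.81 with GB49580 and 0.85 with GB49581. Between the strands the r ranged from -0.44 to 0.04. The closest model to GB49580 outside the run was GB53755 (Group3.9, 2286445 to 2289114, plus strand; r = 0.995), which stood at 717 and 699 FPKM in the L3 worker and at 54.1 and 34.2 in the L3 queen inputs. For GB49581 it was GB43825 (Group8.8, 718333 to 722522, minus strand; r = 0.99), and for GB49579 it was GB52948 (Group6.23, 667598 to 675568, plus strand; r = 0.99). GB52948 ranged only from 5.38 to 12.5 FPKM over the inputs, so a high r does not mean a change of like size.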

How the data were processed

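The authors deposited 1 table per library with an FPKM value per gene model, per the file headers; the submitters' processing notes name HISAT2 2.1.0, and for the program behind the FPKM, the build and the gene set, the answer is: not given in the sources used here. Depth is unknown, so no counting error can be given. Each library was scaled by a median-of-ratios factor over models above 1 FPKM in every library of a fit (7511 models for input, 7901 for IP, 6947 for all 20 libraries). Models whose scaled FPKM averaged 1 or more entered a fit of log2(FPKM + 1) with limma 3.58.1 in R 4.3.3 (eBayes with trend), 1 level per kind of larvae and library type, Benjamini-Hochberg adjustment and a threshold of 0.05. Log2 differences understate changes of low models. With 2 libraries per group the spread is pooled over a fit. The script was tested on simulated data. Alternatives were a pseudocount of 0.1, no filter, FPKM as deposited, library weights, fewer instars, a replicate block and leaving out each library. Members and lists were chosen with earlier results of these data known. Named models were the 5 members, the 3 on each side, the 5 most like GB49544 and the 1 most like each other member. No sequence was used. Figures used matplotlib 3.10.9.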

Additional observations from a re-analysis of the deposited data

Results flagged for a closer look

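GB49545 had an IP over input value that differed between L5 queens and L1 by the test of that difference, 0.75 log2 units (limma adjusted p = 0.0370), with both L5 queen pairs (0.15 and -0.32) above both L1 pairs (-0.93 and -0.75). This call passed in 4 of 6 other settings and in 13 of 20 fits that left out 1 library, with limma adjusted p-values from 0.00346 to 0.155.

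GB49580 was lower in IP than in input in both L3 queen pairs and higher in both L5 queen pairs, a difference of 0.88 log2 units that was not tested. GB49544 did the same between L3 and L5 workers, by 0.75, also not tested, where its L5 values were below 1 FPKM in every library. Such moves were not particular to the run. The pairs of GB49543, next to it, gave -0.47 and -0.43 at L1, -0.64 and -0.68 in L3 queens and 0.64 and 0.27 in L5 queens, also not tested. The L5 worker IP libraries listed 1384 and 1592 of all models at 0, and the L5 worker inputs 5063 and 5430.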

How the results depend on the processing

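For both L5 against L1 comparisons in input and the L3 castes in IP, every alternative that tested a model kept its call. The caste calls at L5 in input were the least stable. Of the 5 models, 0 were called with a pseudocount of 0.1, where 601 of all 10121 were lower. With FPKM as deposited it was 1, where 519 models were lower, with library weights 0, where 84 were, and with the L5 inputs alone 0, where 58 of 9513 were. When 1 library was left out it was 0 to 2. In IP the L5 caste count was 1 to 2 when 1 library was left out. For IP over input at L1 the count was 2 with FPKM as deposited, where 4207 models were lower. In L5 workers it was 1 with a pseudocount of 0.1, where 1217 of 10375 were higher, and for L5 workers against L1 it was 2 with FPKM as deposited, where 3288 were higher. For L5 queens against L1 it was 0 with library weights, where 346 were higher, 0 with the L1 and L5 libraries alone, where 240 were, and 0 to 1 when 1 library was left out. The cause was not tested. The replicate block left the count of called models the same in all 11 comparisons, with 2 for the L5 castes in input. Replicate differences of same-numbered IP and input libraries correlated above 0.1 in 4 of 5 kinds of larvae (0.165 to 0.647) and at 0.079 in L5 workers. Between different kinds of larvae the same correlation ran from -0.186 to 0.391 for IP and from -0.026 to 0.356 for input. The values of L1 (0.647), L3 queens (0.636) and L5 queens (0.426) lay above these ranges. Those of L3 workers (0.165) and L5 workers (0.079) lay within them. Since not every kind passed 0.1, the numbers were not taken as a pairing, which these values do not exclude.

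None of the values that turned direction passed the threshold. With FPKM as deposited, GB49545 in the L5 castes became 0.029, GB49580 and GB49581 in IP over input at L1 became -0.59 and -0.042, and GB49581 became 0.16 in L5 workers and 0.20 in L5 workers against L1. With L1 alone GB49580 became -0.015. When 1 library was left out, the L5 caste difference in input ranged from -0.049 to 0.27 for GB49544 and from -0.22 to 0.16 for GB49545. IP over input at L1 ranged from -0.56 to 0.10 for GB49544, from -0.080 to 0.097 for GB49580 and from -0.079 to 0.20 for GB49581. In L5 queens it ranged from -0.29 to 0.10 for GB49545. In L5 workers it ranged from -0.053 to 0.68 for GB49579, from -0.090 to 0.37 for GB49580 and from -0.48 to 0.39 for GB49581. Between the L5 castes it ranged from -0.15 to 0.63 for GB49579 and from -0.23 to 0.64 for GB49581. For L5 queens against L1 it ranged from -0.035 to 0.24 for GB49581. For L5 workers against L1 it ranged from -0.053 to 0.68 for GB49579, from -0.096 to 0.37 for GB49580 and from -0.54 to 0.33 for GB49581. FPKM hold no depth, so nothing below about 1 FPKM can be given a counting error.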

Other observations

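GB49577, the 207 bp model next to the run and no member of it, stood higher in IP than in input in every same-numbered pair, not tested. Its IP values at L1 and L3 were 113 to 247 FPKM and its input values 16.1 to 45.8. The L5 larvae gave 5.13 to 13.1 FPKM for IP and 0.608 to 5.18 for input. These ranges overlap, and replicate 1 of the L5 queens had 5.45 FPKM in IP against 5.18 in input. GB49543, on the other side of the run, went from 37.9 and 57.2 FPKM of input at L1 to 200 to 386 at L5.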
